A study of Mus musculus with 14 samples.

Results

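The 57 genes described here encode the transcription factor NRF2, its inhibitor KEAP1 and the enzymes and transporters that make glutathione, use it and clear reactive or foreign compounds. They were chosen by symbol from the deposited table, which holds 24946 usable gene symbols, and all 57 were found. Of these, 47 had a mean normalised count of at least 10 over the 14 libraries and entered the test across 12693 genes. The other 10 (Gpx2, Gpx3, Gsta4, Gstm4, Gstt1, Gstt2, Gstt3, Gstk1, Cbr3 and Abcc2) lay below that mean and are given as values without a test.

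KEAP1 holds NRF2 (gene Nfe2l2) in the cytosol and presents it to a ubiquitin ligase. Oxidants and electrophiles modify KEAP1, NRF2 then accumulates, and with small MAF proteins it binds antioxidant response elements near genes for glutathione synthesis, thioredoxin reduction, quinone reduction and conjugation. The control acts largely on NRF2 protein, which an RNA measurement does not read, and in liver the same enzymes carry out much of the conjugation of drugs, steroids and aldehydes.

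The RNA-seq libraries came from a mouse hepatocellular carcinoma line that carried floxed Acly alleles and was derived from tumors induced by diethylnitrosamine. The groups were WT (4 libraries, transduced with an empty LentiCRISPR v2 vector), ACLY KO (4 libraries, a single-cell clone made with adenoviral Cre and then given the same empty vector), ACSS2 KO (3 libraries, a single-cell clone made from WT cells with a guide to the first exon of Acss2) and DKO1 (3 libraries, a single-cell clone made from the ACLY KO cells with the same guide). All groups carried the vector and puromycin selection and were cultured for 24 hours in DMEM with 10% calf serum. Each knockout is 1 clone, so a genotype and its clone cannot be told apart, and DKO1 inherits whatever else distinguishes the ACLY KO clone.

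The values are normalised counts, with library totals from 23512975 to 26901953, and per-library values are given in the order WT replicates 1 to 4, ACLY KO replicates 1 to 4, ACSS2 KO replicates 1, 2 and 4, and DKO1 replicates 1, 3 and 4. Acly followed its labels, at 6050 ± 423 for WT and 1001 ± 56.1 for ACLY KO (SD, n = 4 each), and at 5684 ± 124 for ACSS2 KO and 946 ± 12.9 for DKO1 (SD, n = 3 each). Acss2 measured 237 ± 11.5 for WT and 132 ± 4.88 for ACSS2 KO, and 718 ± 56.7 for ACLY KO and 535 ± 69.1 for DKO1, so it was lower in each edited clone than in its parent but higher in DKO1 than in WT. An edit by a guide need not lower the mRNA, so Acss2 is only a weak check of the labels. Of 10 hepatocyte markers 5 had a mean of at least 10, the keratins Krt8 and Krt18 were abundant, and Apoa1, Serpina1a and Cps1 had medians of 0. All 5 cholangiocyte markers and all 5 fibroblast or stellate markers passed a mean of 10, against 2 of 5 endothelial markers and 1 of 5 immune markers, with Stab2, Adgre1 and Cd3e at medians of 0. The summed hepatocyte markers ran from 48008 to 65017 in WT, 34670 to 37855 in ACLY KO, 41029 to 44004 in ACSS2 KO and 25953 to 45201 in DKO1, nearly all of it Krt8 and Krt18. In the order WT, ACLY KO, ACSS2 KO and DKO1, the means of Afp were 37.0, 127, 34.3 and 210. Those of Hnf4a were 172, 28.7, 39.8 and 22.4, lower in every knockout, and those of Alb were 31.4, 23.4, 134 and 11.3. The summed cholangiocyte markers ran from 35800 to 48433, 30250 to 32241, 40073 to 43264 and 44275 to 70631 in the same order, with Spp1 highest in DKO1 and Krt19, Krt7, Epcam and Sox9 lower there than in WT by mean. The summed fibroblast or stellate markers ran from 618 to 729 in WT, 2933 to 3297 in ACLY KO, 1431 to 1487 in ACSS2 KO and 1225 to 1514 in DKO1. They were higher in ACLY KO than in WT, while the sums of DKO1 and ACSS2 KO overlapped. Single markers of that list went opposite ways between ACSS2 KO and DKO1. Their means were 68.4 and 587 for Col3a1, 19.2 and 99.6 for Col1a2, and 820 and 178 for Dcn. Those of Col1a1 (523 and 477) and Pdgfrb (27.2 and 31.5) lay closer. The summed endothelial markers ran from 26.3 to 36.5, 123 to 145, 16.2 to 29.5 and 67.2 to 100 in the same order. That endothelial sum was higher without ACLY in both backgrounds with no overlap. Kdr of that list went the other way, with means of 12.9 for WT, 2.21 for ACLY KO, 3.84 for ACSS2 KO and 2.05 for DKO1. The summed immune markers ran from 39.8 to 76.2, 61.6 to 101, 27.4 to 53.3 and 83.8 to 132, and the part of these shifts in the results below was not tested. In WT replicate 2 and DKO1 replicate 4, short transcripts were high and long ones low (Spearman correlation of each gene's deviation from its group mean with transcript length of -0.58 and -0.67 across 12606 genes), and in ACLY KO replicate 4 and ACSS2 KO replicate 1 the correlation was -0.57 and -0.52. Values without the first pair of libraries are given where leaving them out ends or adds a call named below or moves a called value or a list's median by over 1.5 times, and the part of transcript length was not tested beyond a correction for it.

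The promoter sequences of 48 members were found in a RefSeq table of build GRCm38.p6, as 300 bases that run from 250 before to 50 after the annotated start. A short form of the antioxidant response element, TGACNNNGC on either strand, occurred in 13 of the 48 (27.1%) and in 14% of 27025 genes. The longer NRF2 and MAF form TGANTCAGC, which overlaps the short form where N is C, occurred in 4 of the 48 (8.33%) and in 1.37% of all genes, and 31.2% of members and 14.7% of all genes held at least 1 of the forms. Of these 4, the neighbouring genes Gstp1 and Gstp2 hold the same 29 bases around the match, so their matches are not distinct. A match is a description of letters and not of binding, and a member without one may hold elements outside this window.

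The upstream 250 bases of Srxn1 at chr2:152105274-152105523 (plus strand, GRCm38.p6, up to the RefSeq start) are shown because this member had the smallest adjusted p of all 47 in DKO1 against ACSS2 KO. Capitals mark the match to the longer form.
Srxn1 promoter: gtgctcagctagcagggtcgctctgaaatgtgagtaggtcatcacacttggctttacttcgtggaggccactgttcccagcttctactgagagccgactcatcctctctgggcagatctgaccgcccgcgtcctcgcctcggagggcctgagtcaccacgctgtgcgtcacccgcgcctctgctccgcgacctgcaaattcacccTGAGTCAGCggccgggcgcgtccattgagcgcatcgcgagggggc

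The matched element with 10 bases on each side is set out for 4 further members whose counts are described below, each written along the strand that carries the match. Prdx1 lies at chr4:116685456-116685484 (minus strand), Gstp1 at chr19:4037968-4037996 (minus strand), Gclm at chr3:122245413-122245441 (minus strand) and Txnrd1 at chr10:82859104-82859132 (minus strand). By GENCODE on GRCm38 the Prdx1 and Gclm elements lie upstream of the gene, that of Gstp1 spans its 5′ end, and that of Txnrd1 lies within the gene, ahead of a downstream RefSeq start.
Prdx1 element: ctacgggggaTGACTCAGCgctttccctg
Gstp1 element: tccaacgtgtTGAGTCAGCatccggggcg
Gclm element: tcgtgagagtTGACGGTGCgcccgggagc
Txnrd1 element: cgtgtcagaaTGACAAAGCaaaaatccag
On ACLY loss Gclm rose in both backgrounds and Prdx1 in 1, while Txnrd1 fell in both and Gstp1 in 1, so these 4 did not share a direction. They are not typical of all members with a match. Of the others, Srxn1, Akr1c19 and Ugdh rose in both backgrounds and Gsta3 and Mgst1 in ACLY KO against WT. Gstm7 rose in ACLY KO and fell in DKO1 against their controls. With all libraries Nfe2l2, Abcc4, Gstm5 and Gstp2 were called in neither background, and Abcc2 was not tested.

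Nfe2l2 was called in no comparison and Keap1 in 1. Nfe2l2 stood at 3887, 3938, 4088 and 3773 in WT, 4107, 4323, 3956 and 3918 in ACLY KO, 4204, 3981 and 4271 in ACSS2 KO, and 4197, 4139 and 3979 in DKO1. The 4 groups overlapped, and its log2 differences in the 5 pairwise comparisons ran from -0.02 to 0.08 (SE 0.05 to 0.06). Keap1 stood at 1328, 1442, 1361 and 1392 in WT, 1334, 1309, 1378 and 1401 in ACLY KO, 1268, 1221 and 1193 in ACSS2 KO, and 1342, 1436 and 1712 in DKO1. It was called only in DKO1 against ACSS2 KO, where it was higher by 0.28 ± 0.08 on the log2 scale (SE, adjusted p = 0.011). The DKO1 replicate 4 value was the highest of all 14, and without that library the difference was 0.18. Without WT replicate 2 and DKO1 replicate 4 it was also called in ACSS2 KO against WT (-0.15, adjusted p = 0.018).

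**Figure D1:**
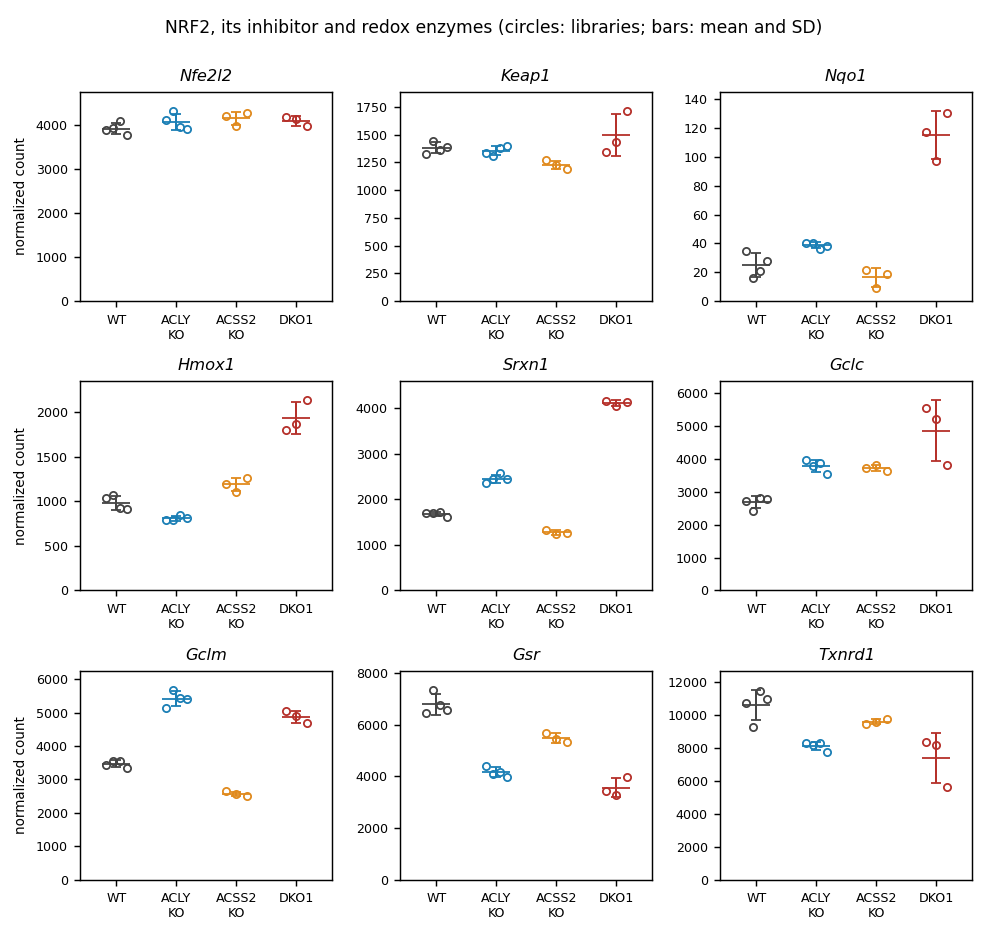
Normalised counts of 9 members by group (circles, single libraries; horizontal bars with whiskers, mean and SD; y axes start at 0). The groups overlap in Nfe2l2, DKO1 replicate 4 is the top circle for Keap1, Nqo1, Hmox1 and Srxn1 were highest in DKO1, Gclm was high in both lines without ACLY, and Gsr was lowest in them.

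The first question was whether loss of ACLY changed these genes, and it could be asked in cells with ACSS2 (ACLY KO against WT) and in cells without it (DKO1 against ACSS2 KO), which share no library although DKO1 descends from the ACLY KO clone. All tests used limma on log2 of the normalised count plus 1, and a gene was called at an adjusted p under 0.05 over all genes. This scale can understate the change of low genes, or overstate it where libraries of a group stand at 0. In ACLY KO against WT 26 of the 47 members were higher and 6 lower, where 23.8% of all genes tested were called higher and 24.7% lower. In DKO1 against ACSS2 KO 28 members were higher and 6 lower, where 25.9% of all genes were called higher and 27.8% lower. The members called higher were thus 55.3% and 59.6% of those tested, and the median log2 difference over the 47 was 0.47 and 0.61, against -0.01 and 0.01 over all genes. No label states that replicates were separate cultures, so the p-values measure only the spread between these libraries.

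Most members called in one background were called in the other. In all, 22 were higher in both, which is 84.6% of the 26 and 78.6% of the 28, and 4 (Gsr, Txnrd1, Akr1c14 and Cbr1) were lower in both. Akr1b7, among the 22, entered the test only through its level in the lines without ACLY. Over all genes, those higher in both made up 63.0% of the genes higher in ACLY KO against WT and 57.9% of those higher in DKO1 against ACSS2 KO. Those lower in both made up 67.4% and 59.9% of the genes lower in each, near the 66.7% of the members. Of the 22, 15 were called in both comparisons whichever single library was left out, and Nqo1, Gclc, Gsta1, Gstm6, Akr1b8, Akr1c13 and Abcc3 were not. With a correction for transcript length 17 of the 22 were called in both, without Nqo1, Gstm1, Gstm6, Akr1b8 and Ugdh. The members with opposite directions were Gstm2 and Gstm7, higher in ACLY KO and lower in DKO1 than their controls, and Hmox1, the reverse. By a stricter rule (absolute log2 difference over 1.5 and adjusted p under 0.01), 5 members passed in ACLY KO against WT and 8 in DKO1 against ACSS2 KO, where 8.80% and 11.3% of all genes did.

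**Figure D2:**
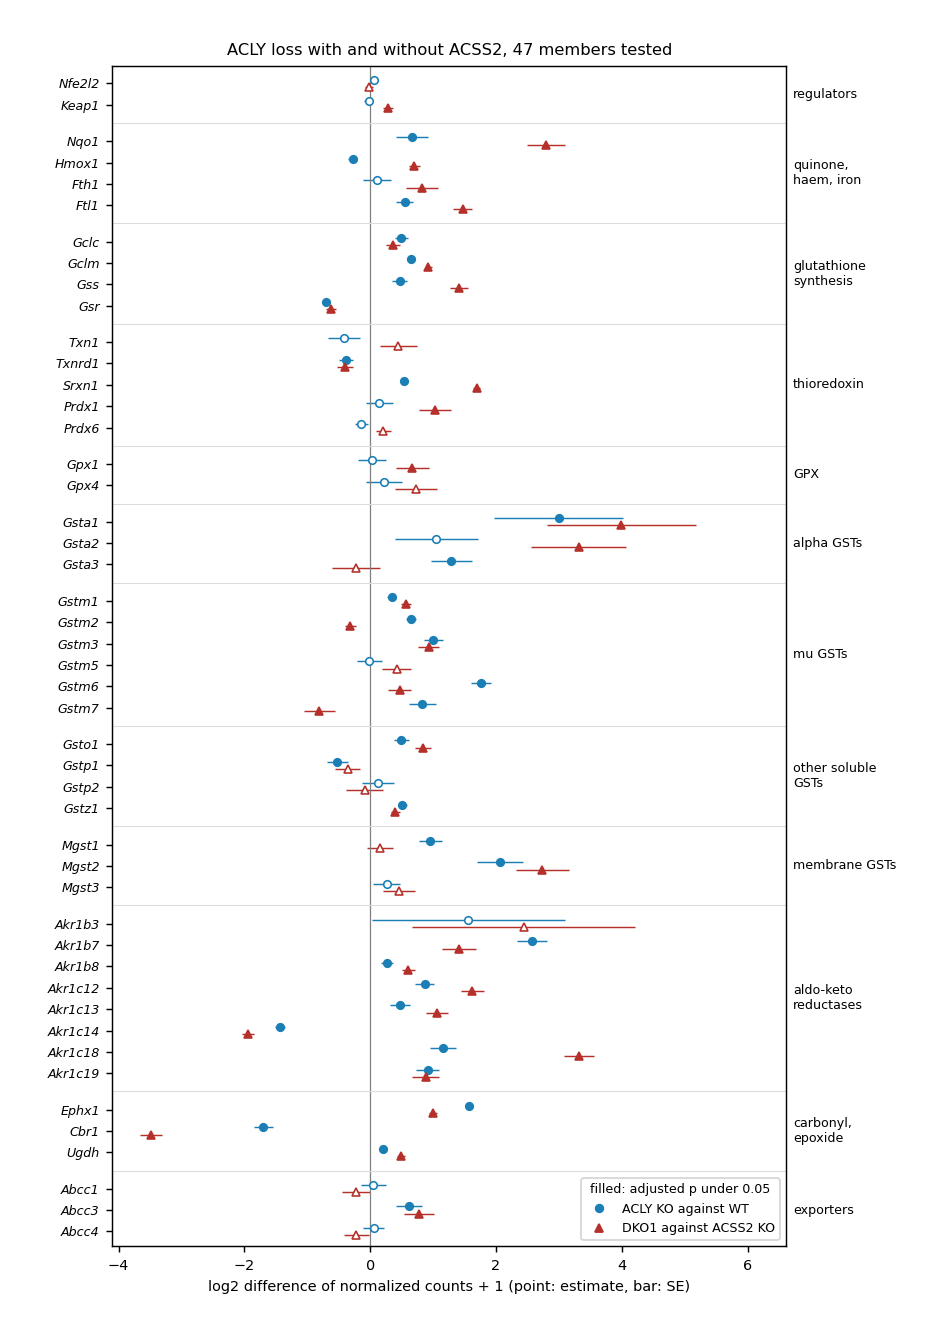
Log2 differences of normalised counts plus 1 for the 47 members tested, by role, in ACLY KO against WT (circles) and DKO1 against ACSS2 KO (triangles), with SE as bars and filled symbols for an adjusted p under 0.05. Most filled symbols lie right of 0, while Gsr, Txnrd1, Akr1c14 and Cbr1 lie left of it in both comparisons.

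Among the genes for quinones, haem and iron, all 4 were higher in DKO1 than in ACSS2 KO and 2 of 4 (Nqo1 and Ftl1) were higher in ACLY KO than in WT. Of all genes 25.9% and 23.8% were called higher in the respective comparisons. Nqo1, a quinone reductase often used as a readout of NRF2, stood at 34.8, 16, 21.2 and 28.0 in WT, 40.4, 40.5, 36.0 and 38.3 in ACLY KO, 21.5, 9.25 and 18.8 in ACSS2 KO, and 118, 97.6 and 131 in DKO1. Every DKO1 library lay above every other library, and the ACLY KO libraries lay just above the highest WT library. The rise in DKO1 over ACSS2 KO was 2.80 ± 0.30 on the log2 scale (SE, 6.96-fold, adjusted p = 4.6e-06). In ACLY KO against WT it was 0.67 ± 0.26 with an adjusted p of 0.0498, a call that was lost on leaving out any 1 of 10 of the 14 libraries (adjusted p up to 0.14, without WT replicate 2, where the difference was 0.48).

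Hmox1, which opens the haem ring and frees its iron, stood at 1039, 1068, 929 and 909 in WT, 787, 789, 850 and 818 in ACLY KO, 1196, 1110 and 1266 in ACSS2 KO, and 1805, 1866 and 2137 in DKO1. The 4 groups did not overlap, with ACLY KO lowest and DKO1 highest. It was lower in ACLY KO than in WT by a log2 difference of -0.28 ± 0.07 (adjusted p = 0.0074) and higher in DKO1 than in ACSS2 KO by 0.70 ± 0.09 (adjusted p = 1.7e-05). Ftl1, the light chain of the iron store ferritin, ran from 49741 to 57145 in WT, 76218 to 84615 in ACLY KO, 42279 to 46249 in ACSS2 KO and 96624 to 165838 in DKO1, again without overlap. Ftl1 rose by 0.55 ± 0.13 in ACLY KO and by 1.47 ± 0.15 in DKO1 against ACSS2 KO, although 42.3% of the 75-base windows of its transcripts occur in other genes (39.9% in the pseudogene Ftl1-ps1). Fth1, the heavy chain, was called in DKO1 against ACSS2 KO (0.82 ± 0.26) but in ACLY KO against WT only without WT replicate 2 and DKO1 replicate 4 (0.28, against 0.11 with them). In DKO1 against ACSS2 KO the difference was 0.46 without DKO1 replicate 4 and the call was lost without ACSS2 KO replicate 2 (0.77).

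The 3 genes of glutathione synthesis rose in both backgrounds and the gene for its reductase fell in both. Gclc, the catalytic subunit of glutamate-cysteine ligase, stood at 2721, 2421, 2823 and 2787 in WT, 3961, 3779, 3887 and 3539 in ACLY KO, 3735, 3814 and 3628 in ACSS2 KO, and 5550, 5219 and 3806 in DKO1. All knockout libraries lay above all WT libraries, and DKO1 replicate 4 lay within the range of the single knockouts. Gclc differed by 0.50 ± 0.10 in ACLY KO against WT (1.41-fold, adjusted p = 0.0011) and 0.36 ± 0.12 in DKO1 against ACSS2 KO (adjusted p = 0.018). The latter call was lost without ACSS2 KO replicate 4 (0.35), DKO1 replicate 1 (0.26) or DKO1 replicate 3 (0.30).

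Gclm, the subunit that modifies the same ligase, stood at 3436, 3560, 3555 and 3337 in WT, 5133, 5687, 5442 and 5409 in ACLY KO, 2639, 2564 and 2501 in ACSS2 KO, and 5037, 4895 and 4683 in DKO1. The 4 groups did not overlap, with both lines without ACLY high and ACSS2 KO lowest. It rose by 0.64 ± 0.05 in ACLY KO (adjusted p = 3.0e-07) and by 0.92 ± 0.06 in DKO1 against ACSS2 KO (adjusted p = 3.3e-08). The other tested genes within 10 Mb of Gclm on chromosome 3 had medians of 0.53 and 0.89 in these comparisons (65 genes), close to the values of Gclm itself, and the part of such a regional shift was not tested. Gss, which adds glycine to complete glutathione, ran from 638 to 772 in WT and 912 to 978 in ACLY KO, and from 580 to 618 in ACSS2 KO and 1291 to 2121 in DKO1. It rose by 0.47 ± 0.12 and 1.41 ± 0.14 in the respective comparisons (adjusted p = 0.0062 and 2.2e-06).

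Gsr, the reductase that returns oxidised glutathione to its reduced form, stood at 6434, 7357, 6756 and 6574 in WT, 4412, 4108, 4159 and 3956 in ACLY KO, 5691, 5437 and 5324 in ACSS2 KO, and 3422, 3275 and 3965 in DKO1. Both lines without ACLY lay below both lines with it. The log2 difference was -0.70 ± 0.07 in ACLY KO against WT (adjusted p = 2.2e-06) and -0.63 ± 0.08 in DKO1 against ACSS2 KO (adjusted p = 2.1e-05). The median over 67 neighbours on chromosome 8 was -0.36 and -0.46, and the part of this was not tested.

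The thioredoxin genes did not move as one group. Srxn1, which repairs overoxidised peroxiredoxins, stood at 1688, 1706, 1719 and 1615 in WT, 2351, 2433, 2565 and 2448 in ACLY KO, 1330, 1231 and 1260 in ACSS2 KO, and 4164, 4048 and 4121 in DKO1. The groups were tight and did not overlap. Srxn1 rose by 0.54 ± 0.05 in ACLY KO (1.46-fold, adjusted p = 1.0e-06) and by 1.69 ± 0.06 in DKO1 against ACSS2 KO (3.23-fold, adjusted p = 1.4e-10).

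Txnrd1, the reductase of thioredoxin, went the other way. It stood at 10751, 9273, 11456 and 10961 in WT, 8291, 8179, 8278 and 7757 in ACLY KO, 9482, 9549 and 9790 in ACSS2 KO, and 8393, 8188 and 5649 in DKO1. All libraries without ACLY lay below all libraries with it. The log2 difference was -0.38 ± 0.11 in ACLY KO against WT (adjusted p = 0.011) and -0.40 ± 0.13 in DKO1 against ACSS2 KO (adjusted p = 0.018), and the latter was -0.21 without DKO1 replicate 4 and was not called without ACSS2 KO replicate 4 (-0.38, adjusted p = 0.053). The peroxide-removing Prdx1 ran from 14100 to 15977 in ACSS2 KO and from 22269 to 51979 in DKO1, and was called there (1.03 ± 0.25, and 0.65 without DKO1 replicate 4) but in ACLY KO against WT (0.14 ± 0.22) only without WT replicate 2 and DKO1 replicate 4 (0.27, adjusted p = 0.0031). Txn1 itself and Prdx6 were called in neither comparison, although without those libraries Txn1 was lower in ACLY KO (-0.21, adjusted p = 0.026). Of the peroxidases that use glutathione, Gpx4, which reduces lipid peroxides, was called in neither with all libraries. It was called in ACLY KO against WT without the same libraries (0.31, adjusted p = 0.0045). In DKO1 against ACSS2 KO it was called without DKO1 replicate 1 (1.05, adjusted p = 0.013) or DKO1 replicate 3 (0.94, adjusted p = 0.041). Both fits keep DKO1 replicate 4, where Gpx4 stood at 23020, beside 6950 and 8086 in the other DKO1 libraries and 6084 to 7219 in ACSS2 KO. Without WT replicate 2 and DKO1 replicate 4 the median of Gpx1 and Gpx4 in this comparison was 0.23, in place of 0.70. Gpx1 was called only in DKO1 against ACSS2 KO (0.67 ± 0.26, adjusted p = 0.048). The Gpx1 call was lost on leaving out any 1 of 11 libraries, and the difference was 0.27 without DKO1 replicate 4.

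Of the 22 listed glutathione transferases, which join glutathione to electrophiles, 16 were tested. In ACLY KO against WT 11 were higher and 1 lower, and in DKO1 against ACSS2 KO 8 were higher and 2 lower. These are 68.8% and 6.25% of the 16 in the former and 50% and 12.5% in the latter, beside the shares of all genes given above. The median log2 difference over the 16 was 0.74 and 0.44, and in DKO1 against ACSS2 KO it was 0.22, with 7 higher and 4 lower, without WT replicate 2 and DKO1 replicate 4. Those are 43.8% and 25% of the 16, where 32.5% of all genes were called higher and 34.1% lower in that fit.

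In the alpha class the counts were low and partly shared between copies. Gsta1 stood at 0, 20.8, 27.9 and 0 in WT, 56.9, 35.7, 28.3 and 39.9 in ACLY KO, 2.97, 12.1 and 21.9 in ACSS2 KO, and 128, 129 and 282 in DKO1. Every ACLY KO library lay above every WT library and every DKO1 library above every ACSS2 KO library, but 84.7% of the 75-base windows of Gsta1 also occur in other genes, with 69.3% in Gm3776, so its counts are uncertain. The log2 difference was 3.00 ± 1.03 in ACLY KO (adjusted p = 0.028), which was lost without any 1 of 5 libraries (2.22 without WT replicate 1 or WT replicate 4), and 3.99 ± 1.18 in DKO1 against ACSS2 KO (adjusted p = 0.012), which was lost without ACSS2 KO replicate 1 (3.28). The group means were 12.2 in WT and 40.2 in ACLY KO, and the WT libraries at 0 enlarge the log2 difference.

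Gsta2, which shares 36.6% of its windows with other genes, stood at 12.0, 3.46, 6.70 and 0 in WT, 14.2, 4.70, 7.71 and 9.98 in ACLY KO, 3.71, 2.13 and 7.30 in ACSS2 KO, and 42.6, 36.7 and 72.2 in DKO1. Only the DKO1 libraries stood apart from the rest, and Gsta2 passed the minimum of 10 only through them (group means of 5.54, 9.15 and 4.38 elsewhere and 50.5 in DKO1), so its tests in DKO1 carry that selection. The rise over ACSS2 KO was 3.31 ± 0.76 (adjusted p = 0.0024). Gsta3 stood at 31.6, 21, 18.2 and 13.1 in WT, 58.5, 58.6, 52.4 and 35.6 in ACLY KO, 64.0, 39.8 and 52.6 in ACSS2 KO, and 35.8, 28.6 and 81.0 in DKO1. Each single knockout lay above WT, and the DKO1 libraries spread across the other groups. The log2 difference was 1.29 ± 0.33 in ACLY KO against WT (adjusted p = 0.0053) and -0.22 ± 0.38 in DKO1 against ACSS2 KO (adjusted p = 0.64), the latter -0.66 without DKO1 replicate 4 and still not called.

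The mu class lies in 1 cluster on chromosome 3 between 107895821 and 108044894 (GRCm38), and its members did not move together. Gstm1 and Gstm3 rose in both backgrounds (Gstm1 by 0.34 ± 0.07 and 0.57 ± 0.09, Gstm3 by 1.0 ± 0.15 and 0.93 ± 0.17). Gstm6 stood at 25.3, 26.5, 19.0 and 25.8 in WT, 76.8, 77.1, 82.3 and 98.8 in ACLY KO, 45.4, 32.2 and 37.5 in ACSS2 KO, and 45.7, 52.0 and 62.7 in DKO1. It was highest in ACLY KO, with a rise of 1.76 ± 0.16 over WT (3.38-fold, adjusted p = 9.4e-07). Against ACSS2 KO, DKO1 was higher by 0.47 ± 0.18 (adjusted p = 0.043), a call lost on leaving out any 1 of 9 libraries (lowest 0.35, without ACSS2 KO replicate 2 or DKO1 replicate 4).

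The neighbours Gstm2 and Gstm7 had opposite directions in the respective backgrounds. Gstm2 ran from 3617 to 3968 in WT, 5456 to 6287 in ACLY KO, 6317 to 6879 in ACSS2 KO and 4810 to 6089 in DKO1, so that each knockout lay above WT and DKO1 lay below ACSS2 KO. It differed by 0.65 ± 0.08 in ACLY KO against WT (adjusted p = 1.2e-05) and by -0.32 ± 0.09 in DKO1 against ACSS2 KO (adjusted p = 0.0085). Gstm7 differed by 0.83 ± 0.22 and -0.81 ± 0.25, and the latter was lost without ACSS2 KO replicate 4 (-0.73) or DKO1 replicate 3 (-0.51). Gstm5 was called in neither. The median over the 101 neighbours of this cluster within 10 Mb was 0.25 and 0.45.

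Among the other soluble transferases, Gsto1 (omega class) and Gstz1 (zeta class, also an enzyme of tyrosine breakdown) rose in both backgrounds, Gsto1 by 0.50 ± 0.11 and 0.84 ± 0.13 and Gstz1 by 0.51 ± 0.07 and 0.40 ± 0.08. Gstp1, the abundant pi-class enzyme, ran from 8155 to 13205 in WT and 6411 to 7276 in ACLY KO and fell by 0.52 on the log2 scale (SE 0.17, adjusted p = 0.023), a call lost without WT replicate 2 (-0.38) or ACLY KO replicate 3 (-0.49). In DKO1 against ACSS2 KO the Gstp1 difference was -0.36 ± 0.20 (adjusted p = 0.15), and it was -0.60 without WT replicate 2 and DKO1 replicate 4, where it was called (adjusted p = 1.0e-05). Gstp1 shares 29.2% of its windows with Gstp2, which was called in neither comparison with all libraries, and was lower in DKO1 than in ACSS2 KO without those libraries (-0.51, adjusted p = 0.036).

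All 3 membrane transferases were tested, and Mgst2 was the one that rose in both backgrounds. Mgst2 stood at 7.97, 21.9, 16.8 and 9.32 in WT, 52.0, 59.2, 47.1 and 73.0 in ACLY KO, 8.90, 12.8 and 13.5 in ACSS2 KO, and 61.8, 54.9 and 166 in DKO1. Libraries without ACLY all lay above libraries with it, by 2.06 ± 0.36 in ACLY KO (4.17-fold, adjusted p = 3.9e-04) and 2.74 ± 0.42 in DKO1 against ACSS2 KO (6.66-fold, adjusted p = 1.1e-04). Mgst1, the abundant form of the endoplasmic reticulum and mitochondrial outer membrane, stood at 333, 308, 253 and 233 in WT, 505, 562, 541 and 564 in ACLY KO, 761, 618 and 760 in ACSS2 KO, and 630, 667 and 1189 in DKO1. Each knockout lay above WT, and Mgst1 rose by 0.96 ± 0.18 in ACLY KO (adjusted p = 5.8e-04) while the difference between DKO1 and ACSS2 KO was 0.16 ± 0.21 (adjusted p = 0.53) and, without DKO1 replicate 4, -0.13. Mgst3 was called in neither with all libraries. It was called in ACLY KO against WT without WT replicate 2 and DKO1 replicate 4 (0.38), and in DKO1 against ACSS2 KO without DKO1 replicate 1 (0.72). The latter fit keeps DKO1 replicate 4, where Mgst3 stood at 802, beside 325 and 381 in the other DKO1 libraries and 325 to 347 in ACSS2 KO. Without WT replicate 2 and DKO1 replicate 4 the median of the 3 membrane transferases in DKO1 against ACSS2 KO was 0.07.

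The aldo-keto reductases, which reduce aldehydes, ketones and steroids with NADPH, had 6 of 8 members higher (75%) and 1 lower (12.5%) in either comparison. Of all genes 23.8% were called higher and 24.7% lower in ACLY KO against WT, and 25.9% and 27.8% in DKO1 against ACSS2 KO. Akr1c12, Akr1c13, Akr1c14, Akr1c18 and Akr1c19 lie in 1 cluster on chromosome 13 between 4049011 and 4279433 (GRCm38), and 4 of them rose while Akr1c14 fell. Akr1c18, a 20-alpha-hydroxysteroid dehydrogenase that inactivates progesterone, stood at 47.5, 51.2, 34.3 and 31.4 in WT, 96.2, 100, 77.3 and 93.1 in ACLY KO, 55.3, 49.0 and 65.8 in ACSS2 KO, and 441, 512 and 818 in DKO1. DKO1 stood far above every other library. Akr1c18 rose by 1.16 ± 0.20 in ACLY KO (2.24-fold, adjusted p = 3.6e-04) and by 3.32 ± 0.24 in DKO1 against ACSS2 KO (9.96-fold, adjusted p = 9.2e-08).

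Akr1c14, a 3-alpha-hydroxysteroid dehydrogenase, stood at 912, 1027, 911 and 961 in WT, 408, 341, 329 and 339 in ACLY KO, 2306, 2099 and 2233 in ACSS2 KO, and 551, 543 and 630 in DKO1. The 4 groups were wide apart, with the ACSS2 KO libraries highest and both lines without ACLY below WT. Akr1c14 differed by -1.43 ± 0.08 in ACLY KO against WT (2.69-fold lower, adjusted p = 1.4e-08) and -1.94 ± 0.09 in DKO1 against ACSS2 KO (3.85-fold lower, adjusted p = 2.5e-09). The other 3 members of the cluster, Akr1c12, Akr1c13 and Akr1c19, rose by 0.47 to 0.92 in ACLY KO and by 0.89 to 1.62 in DKO1 against ACSS2 KO. The Akr1c13 call in ACLY KO was lost without any 1 of 4 libraries (lowest 0.40, without WT replicate 3), and Akr1c19 stood at 0.57 in DKO1 against ACSS2 KO without DKO1 replicate 4. Akr1c12 and Akr1c13 share 17.3% and 14.3% of their windows with each other. The median over 30 neighbours was -0.59 in ACLY KO against WT and -0.17 in DKO1 against ACSS2 KO, the opposite sign to the 4 that rose.

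Of the Akr1b genes on chromosome 6, Akr1b7 stood at 3.99, 2.31, 3.36 and 3.50 in WT, 27.2, 22.6, 24.0 and 23.3 in ACLY KO, 5.20, 5.70 and 5.21 in ACSS2 KO, and 12.2, 13.5 and 24.5 in DKO1. Both lines without ACLY lay above both lines with it. The mean of Akr1b7 over all libraries (12.6) passed the minimum only through the lines without ACLY, so its tests on ACLY loss carry that selection. The difference was 2.57 ± 0.23 in ACLY KO against WT (adjusted p = 1.1e-06) and 1.41 ± 0.27 in DKO1 against ACSS2 KO (adjusted p = 6.8e-04). Akr1b8 rose by 0.27 ± 0.09 and 0.61 ± 0.10, the former lost without any 1 of 4 libraries (lowest 0.21, without WT replicate 4). Akr1b3, the aldose reductase, ran from 0 to 98.3 within WT and from 0 to 119 within DKO1 and was called in no comparison with all libraries. Without WT replicate 2 and DKO1 replicate 4, each of which sets an end of its group's range, it was lower than the controls in ACSS2 KO against WT, DKO1 against ACLY KO and DKO1 against WT (-3.79, -3.34 and -3.01).

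The enzymes for carbonyls, epoxides and glucuronate included the largest fall among the members tested. Cbr1, a carbonyl reductase, stood at 195, 210, 131 and 151 in WT, 47.5, 49.1, 51.8 and 57.1 in ACLY KO, 603, 536 and 607 in ACSS2 KO, and 44.6, 48.6 and 61.1 in DKO1. ACLY KO and DKO1 overlapped at the low end, and ACSS2 KO stood highest. The log2 difference was -1.70 ± 0.15 in ACLY KO against WT (3.25-fold lower, adjusted p = 7.7e-07) and -3.49 ± 0.17 in DKO1 against ACSS2 KO (11.2-fold lower, adjusted p = 3.3e-09). Ephx1, the microsomal epoxide hydrolase, ran from 842 to 928 in WT, 2579 to 2691 in ACLY KO, 1492 to 1572 in ACSS2 KO and 2792 to 3228 in DKO1 with no overlap. It rose by 1.57 ± 0.06 in ACLY KO (2.97-fold, adjusted p = 3.2e-10) and by 1.0 ± 0.07 in DKO1 against ACSS2 KO (adjusted p = 5.0e-08). Ugdh, which makes UDP-glucuronate for glucuronidation, rose by 0.21 ± 0.06 and 0.49 ± 0.07. Of the ABC transporters that export conjugates, Abcc3 rose by 0.62 ± 0.20 and 0.78 ± 0.23. The former was lost without WT replicate 4 (0.56) or ACLY KO replicate 2 (0.57), and the latter was 0.41 without DKO1 replicate 4. Abcc1 and Abcc4 were called in neither.

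**Figure D3:**
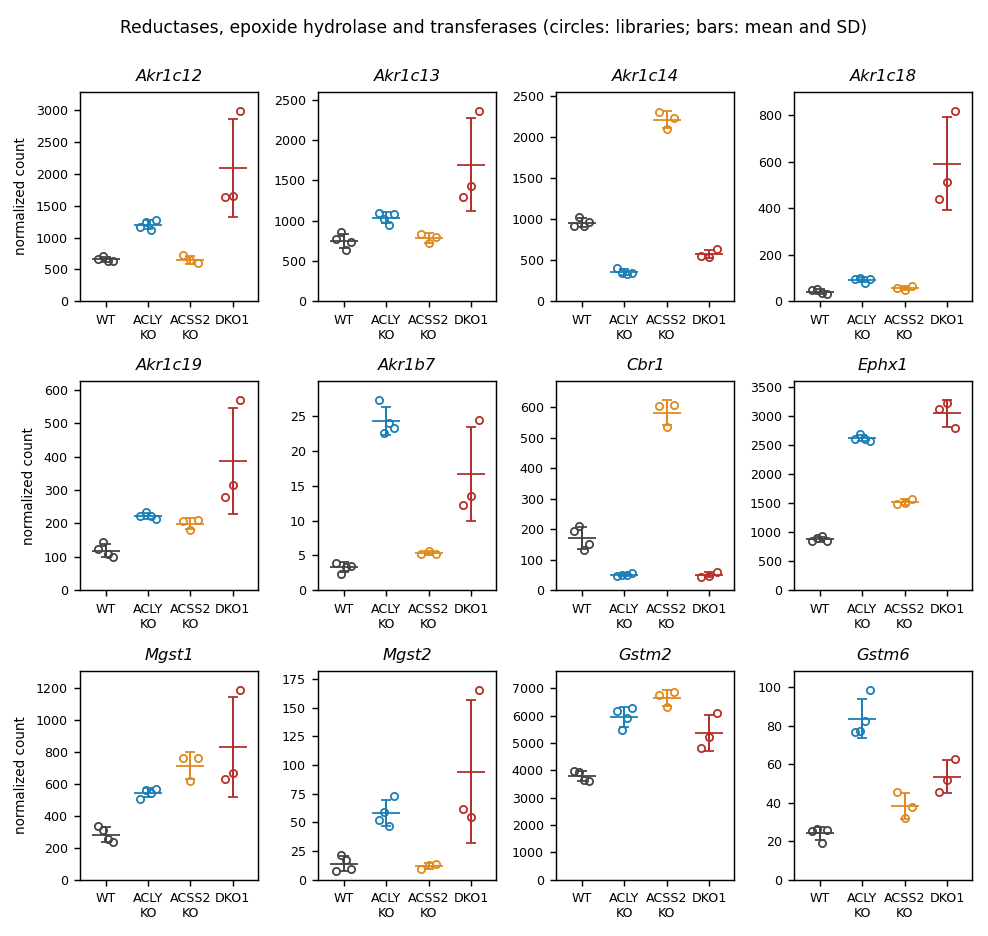
Normalised counts of 12 reductase, hydrolase and transferase genes by group (circles, single libraries; horizontal bars with whiskers, mean and SD; y axes start at 0). Akr1c18 was highest in DKO1, Akr1c14 and Cbr1 were highest in ACSS2 KO and low without ACLY, Ephx1 was high in every knockout, and DKO1 replicate 4 was the top circle for Akr1c12, Akr1c13 and Mgst2.

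Loss of ACSS2 was compared in cells with ACLY (ACSS2 KO against WT) and in cells without it (DKO1 against ACLY KO), again with no shared library. In ACSS2 KO against WT 13 members were higher and 6 lower, where 15.0% of all genes were called higher and 11.0% lower. In DKO1 against ACLY KO 17 were higher and 3 lower, where 14.3% were called higher and 13.6% lower. By the stricter rule 1 and 2 members passed, where 2.42% and 2.06% of all genes did. Without WT replicate 2 and DKO1 replicate 4, the members called were 16 higher and 15 lower in ACSS2 KO against WT and 18 higher and 11 lower in DKO1 against ACLY KO. The shares of all genes called rose in that fit too, to 24.4% higher and 23.5% lower and to 21.4% higher and 22.1% lower, so the 11 lower members (23.4%) stood near the share of all genes.

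Of the members called on ACSS2 loss, 7 were higher in both backgrounds (Hmox1, Gclc, Gstm3, Akr1c14, Akr1c19, Ephx1 and Abcc3), 53.8% of the 13 and 41.2% of the 17, where 19.2% and 20.2% of all genes called higher were higher in both. Of these 7 only Akr1c14 was called in both whichever library was left out, and Gsr and Gsto1 were lower in both, also not in every such fit. With a correction for transcript length 3 of the 7 (Hmox1, Gclc and Akr1c14) were called in both. Srxn1 was lower in ACSS2 KO than in WT (-0.40 ± 0.05, adjusted p = 1.0e-04) and higher in DKO1 than in ACLY KO (0.75 ± 0.05, adjusted p = 6.4e-07), and Gstm6 had the reverse order (0.64 ± 0.17 and -0.64 ± 0.17, adjusted p = 0.013 for each). The Gstm6 call in ACSS2 KO was lost without ACSS2 KO replicate 1 (0.52).

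In ACSS2 KO against WT the members with the largest changes and no overlap were Cbr1 (1.78 ± 0.16, 3.43-fold, adjusted p = 4.6e-06), Mgst1 (1.35 ± 0.19, adjusted p = 2.1e-04), Gsta3 (1.31 ± 0.35, adjusted p = 0.015) and Akr1c14 (1.22 ± 0.09, adjusted p = 6.4e-07). The Gsta3 call was lost without ACSS2 KO replicate 1 (1.16) or replicate 4 (1.29). Of the genes for glutathione synthesis, Gclc rose (0.47 ± 0.11, adjusted p = 0.0059) while Gclm fell (-0.43 ± 0.05, adjusted p = 7.2e-05). The median over the neighbours of Gclm was -0.31. Gsto1, Ugdh, Gsr, Srxn1 and Prdx6 were the other members that fell, Gsto1 by the most (-0.81 ± 0.12, adjusted p = 2.9e-04), and the Prdx6 call (-0.34 ± 0.11) was lost without any 1 of 9 libraries. Without WT replicate 2 and DKO1 replicate 4, all 5 thioredoxin and peroxiredoxin members (100%) were called lower, with a median of -0.25. Of 4 members for quinones, haem and iron, 3 were lower (75%) and 1 higher (25%). In that fit 23.5% of all genes were called lower and 24.4% higher.

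In DKO1 against ACLY KO the largest rises were in Akr1c18 (2.63 ± 0.22, 6.18-fold, adjusted p = 2.8e-06), Gsta2 (2.37 ± 0.71, adjusted p = 0.025, tested only through its DKO1 level), Nqo1 (1.54 ± 0.28, 2.91-fold, adjusted p = 0.0014) and Hmox1 (1.25 ± 0.08, 2.38-fold, adjusted p = 2.9e-07). The Gsta2 call was lost without ACLY KO replicate 2 (2.12), ACLY KO replicate 3 (2.33) or DKO1 replicate 4 (2.09). Of 8 aldo-keto reductases 6 were higher (75%, where 14.3% of all genes were), all 5 of the Akr1c cluster among them, whose neighbours had a median of 0.54. The Akr1b8 call was lost without ACLY KO replicate 1 (0.29), ACLY KO replicate 3 (0.30) or DKO1 replicate 4 (0.25). Without WT replicate 2 and DKO1 replicate 4, 6 of the 8 were higher (75%) and 2 lower (25%), where 21.4% and 22.1% of all genes were. Without DKO1 replicate 4, Akr1c12, Akr1c13 and Akr1c19 differed by 0.46, 0.40 and 0.41 in place of 0.74, 0.66 and 0.72, Ftl1 by 0.40 in place of 0.63 and Abcc3 by 0.51 in place of 0.88, while Gclc stood at 0.51 in place of 0.34. The 3 members that fell were Gsr (-0.23 ± 0.07), Gstm6 and Gsto1 (-0.47 ± 0.12). The Gclc and Gsr calls were each lost without any 1 of 6 libraries, with values nearest to 0 of 0.23 without DKO1 replicate 1 and -0.17 without DKO1 replicate 3, and the Gsto1 call without DKO1 replicate 3 (-0.38).

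**Figure D4:**
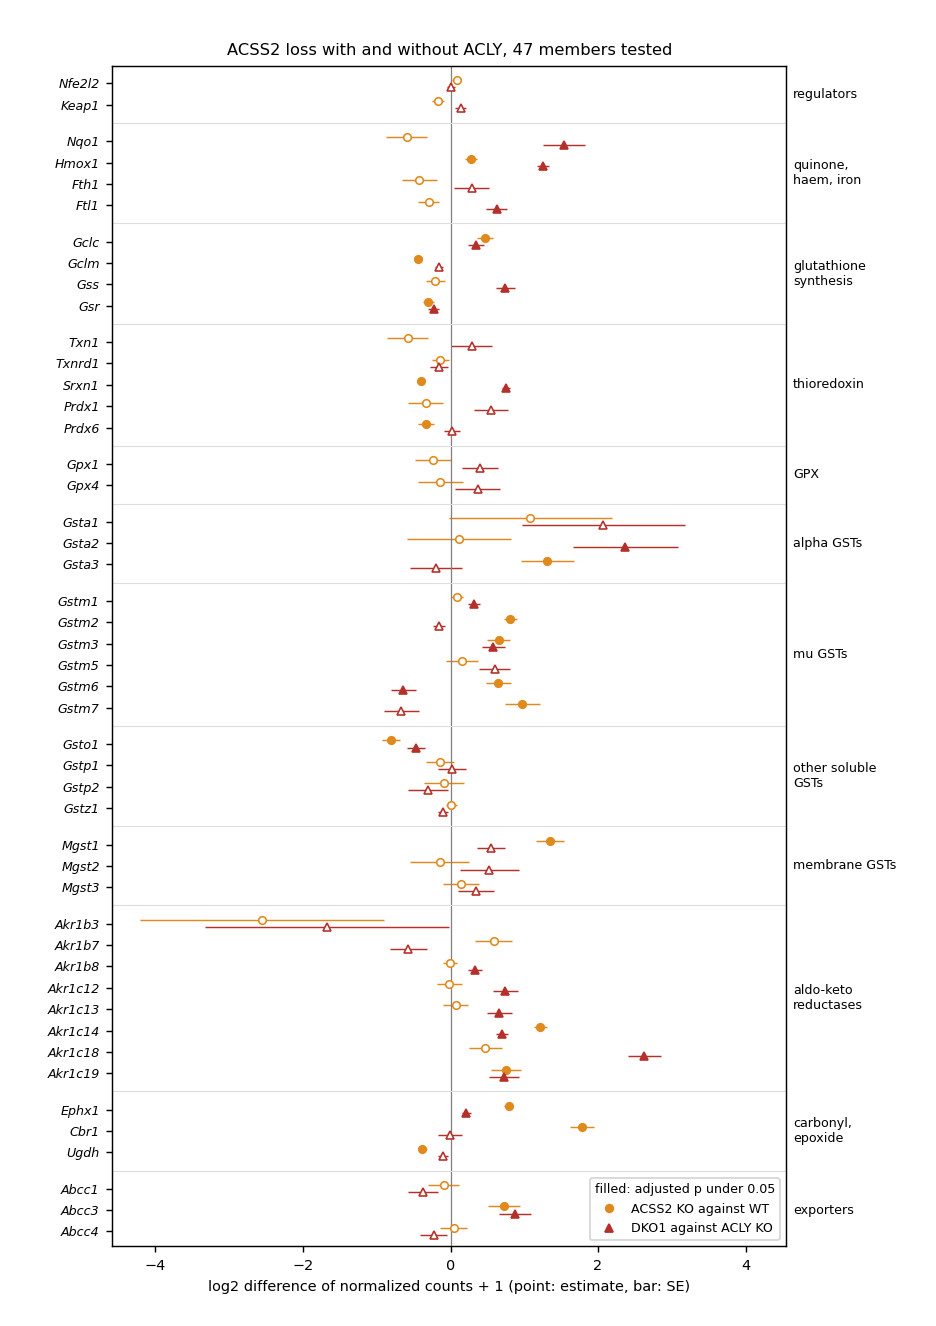
Log2 differences of normalised counts plus 1 for the 47 members tested, by role, in ACSS2 KO against WT (circles) and DKO1 against ACLY KO (triangles), with SE as bars and filled symbols for an adjusted p under 0.05. Fewer symbols are filled than for ACLY loss, and Nqo1, Srxn1, Akr1c18 and Cbr1 differ between the backgrounds.

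Whether the effect of ACSS2 loss differed between cells with and without ACLY was tested as the interaction, (DKO1 minus ACLY KO) minus (ACSS2 KO minus WT). It was called for 18 of 47 members, where 27.1% of all genes were called. Of the members 9 were positive and 9 negative (19.1% each), where 12.0% of all genes were positive and 15.1% negative. The positive ones had Akr1c18 (2.15 ± 0.31, adjusted p = 2.4e-04), Nqo1 (2.13 ± 0.40, adjusted p = 0.0015), Srxn1 (1.15 ± 0.07, adjusted p = 2.9e-07), Hmox1 (0.98 ± 0.11, adjusted p = 4.3e-05), Gss (0.95 ± 0.19) and Ftl1 (0.92 ± 0.20) at the top. In Nqo1 and Srxn1 the single loss of ACSS2 gave -0.59 ± 0.28 (not called, but -0.78 and called without WT replicate 2 and DKO1 replicate 4) and -0.40 ± 0.05, while ACSS2 loss on top of ACLY loss gave a rise. The negative ones included 5 glutathione transferases (Gstm7, -1.64 ± 0.33, Gsta3, Gstm6, Gstm2 and Mgst1), and also Cbr1 (-1.79 ± 0.23, adjusted p = 8.5e-05), Akr1b7 and Akr1c14. Those 5 are 31.2% of the 16 transferases tested, of which 0 were positive. Of the 18, 12 were called whichever library was left out, and Gclm, Gsta3, Mgst1, Akr1b7, Akr1c12 and Ugdh were not. Akr1c12 stood at 0.43 in place of 0.76 without WT replicate 2 and DKO1 replicate 4.

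Against WT, which is the control of both single knockouts too, DKO1 had 28 members higher and 5 lower, where 27.9% of all genes were called higher and 28.1% lower. By the stricter rule 12 passed, where 9.84% of all genes did. The largest rises were those of Gsta1 (5.07 ± 1.11, adjusted p = 0.0017), Akr1c18 (3.79 ± 0.22, 13.8-fold, adjusted p = 2.0e-08), Gsta2 (3.42 ± 0.71, adjusted p = 0.0011, with the same selection) and Mgst2 (2.59 ± 0.39, 6.0-fold, adjusted p = 1.0e-04). For Gsta1 the WT libraries at 0 enlarge the log2 difference, with means of 12.2 in WT and 180 in DKO1. Side by side with WT as the control, Srxn1 differed by 0.54 for ACLY KO, -0.40 for ACSS2 KO and 1.29 for DKO1, and Nqo1 by 0.67, -0.59 and 2.21. Gsr and Txnrd1 were lower than in WT, at -0.93 ± 0.07 and -0.54 ± 0.12, and without DKO1 replicate 4 Txnrd1 was no lower in DKO1 than in ACLY KO (a difference of 0.03). The calls of Prdx1, Gsta3, Gstm5, Gstp1 and Mgst3 in this comparison were each lost on leaving out at least 1 library, and without DKO1 replicate 4 the first 3 and Mgst3 stood at 0.31, 0.65, 0.26 and 0.21 in place of 0.69, 1.09, 0.58 and 0.60.

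Among the 10 members under the minimum some groups stood apart in their values, with no test made. Gstm4 ran from 16.7 to 21.2 in WT, 0 to 1.92 in ACLY KO, 0 to 1.46 in ACSS2 KO and 3.11 to 5.91 in DKO1. Cbr3 ran from 5.72 to 12.2 in WT and 0 to 1.14 in ACLY KO. Gstt3 ran from 12.5 to 18.6 in ACSS2 KO and from 0 to 5.31 in the other groups. Abcc2, the canalicular exporter, ran from 8.11 to 16.4 in DKO1 and 0 to 2.67 in WT, with ACLY KO reaching 10.3. Gpx2, Gpx3, Gsta4, Gstt1, Gstt2 and Gstk1 stayed at or below 7.24 in every library.

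A wider list of 76 pathway genes outside the members, of which 67 were tested, gave 18 higher and 9 lower in ACLY KO against WT and 32 higher and 14 lower in DKO1 against ACSS2 KO, with medians of 0.08 and 0.41. These are 26.9% and 13.4% of the list in the former, where 23.8% and 24.7% of all genes were called, and 47.8% and 20.9% in the latter, where 25.9% and 27.8% were. Without WT replicate 2 and DKO1 replicate 4 the counts were 32 and 15 (median 0.16) and 34 and 17 (median 0.27), where 33.8% and 35.0% and then 32.5% and 34.1% of all genes were called. Among 10 genes that control NRF2, 1 rose and 2 fell in ACLY KO, and the riser was Sqstm1, whose protein p62 binds KEAP1. Sqstm1 stood at 8042 ± 764 for WT and 13229 ± 307 for ACLY KO (SD, n = 4), and at 9750 ± 495 for ACSS2 KO and 15503 ± 1952 for DKO1 (SD, n = 3), with log2 differences of 0.72 ± 0.08 and 0.66 ± 0.10 on ACLY loss (adjusted p = 9.0e-06 and 6.4e-05). Among 8 genes for cystine and NADPH supply 1 rose and 1 fell in ACLY KO. Slc7a11, the cystine importer, stood at 364 ± 23.9 for WT and 632 ± 44.1 for ACLY KO, and at 841 ± 213 for ACSS2 KO and 290 ± 18.6 for DKO1, so that each single knockout lay above WT and DKO1 did not (0.80 ± 0.12 in ACLY KO against WT and -1.50 ± 0.14 in DKO1 against ACSS2 KO, adjusted p = 1.0e-04 and 1.1e-06).

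In the 4 remaining lists of that wider set the counts in ACLY KO against WT were as follows, where 23.8% of all genes were called higher and 24.7% lower. Of 11 tested genes of glutathione turnover 4 rose (36.4%) and 1 fell (9.09%), led by Ggt7 (2.43 ± 0.12), a relative of gamma-glutamyltransferase. Of 14 for thioredoxin and peroxide removal 3 rose (21.4%, near the share of all genes) and 1 fell (7.14%), led by Sod3 (2.42), the extracellular superoxide dismutase. Of 15 for quinones, haem and aldehydes 4 rose (26.7%) and 3 fell (20%), both near the shares of all genes. Aldh1a1, a retinaldehyde dehydrogenase that fell (-0.85), had the smallest adjusted p there but not the largest change. Of 9 for glucuronide and sulfate conjugation 5 rose (55.6%) and 1 fell (11.1%), the one that fell being the exporter Abcg2 (-2.87). Without WT replicate 2 and DKO1 replicate 4 the glutathione turnover list had 9 higher (81.8%), and the thioredoxin list 6 higher (42.9%) and 5 lower (35.7%). In that fit 33.8% of all genes were called higher and 35.0% lower. In DKO1 against ACSS2 KO the 4 lists had 5 higher and 3 lower (45.5% and 27.3%), 7 and 2 (50% and 14.3%), 8 and 3 (53.3% and 20%), and 6 and 1 (66.7% and 11.1%). Of all genes 25.9% were called higher there and 27.8% lower. The 4 named genes differed by 0.52, 1.45, -0.74 and -1.33 (adjusted p of 0.0081 or below).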

How the data were processed

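Per the study's methods, poly(A) RNA was made into strand-specific libraries, sequenced as 75-base single ends, aligned with STAR to GRCm38, and the authors normalised the deposited values with DESeq2. The counting tool and annotation are not given in the sources used here. The deposited signal values are the authors' normalised counts, which are not whole: 39.9% to 71.0% of low values fell on whole multiples, so reads were not recovered and no count model was used. From the 24972 rows, 26 whose symbols read as dates were dropped. Values were taken as log2(value + 1) and fitted with limma 3.58.1 in R 4.3.3 (intensity trend, all 14 libraries, genes with a mean of at least 10, Benjamini-Hochberg over 12693 genes). The script was tested on simulated data. Transcript windows of 75 bases shared with other genes and positions came from GENCODE on GRCm38. Neighbours are other tested genes within 10 Mb.

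Members and lists were chosen with earlier results of these data known. Values in every library are given for 9 set genes and for the 4 members with the largest called, non-overlapping change in each of 5 comparisons, and 1 gene per wider list, that with the smallest adjusted p in ACLY KO against WT, is named. Replicate numbers did not pair the libraries (correlations of deviations from -0.43 to 0.45). Alternatives covered the pseudocount, filter, scaling, transcript length, replicate block, libraries left out and moderation.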

Additional observations from a re-analysis of the deposited data

Results flagged for a closer look

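In 5 of 106 groups of 4 libraries examined, 1 library lay far from the other 3, and chance alone gives about 1 in 20. Ftl1 stood at 84615 and Prdx1 at 23733 in ACLY KO replicate 4, above 76218 to 77352 and 19857 to 20056 in the other ACLY KO libraries. Akr1c14 stood at 408 in ACLY KO replicate 1, above 329 to 341 in the others. Gstm6 stood at 19.0 in WT replicate 3 and Abcc4 at 3360 in WT replicate 2, each below the other WT libraries.

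The effect of ACSS2 loss differed between cells without and with ACLY, by the interaction test, for 18 members. The log2 interaction was 2.15 for Akr1c18, 2.13 for Nqo1, 1.15 for Srxn1, 0.98 for Hmox1, 0.95 for Gss, 0.92 for Ftl1, 0.76 for Akr1c12, and 0.28 for Gclm and for Ugdh. It was -1.79 for Cbr1, -1.64 for Gstm7, -1.51 for Gsta3, -1.29 for Gstm6, -1.16 for Akr1b7, -0.97 for Gstm2, -0.80 for Mgst1, -0.57 for Ephx1 and -0.52 for Akr1c14. Of the named genes outside the members it was called for Slc7a11 (-2.30), Ggt7 (-1.91), Abcg2 (1.54) and Sod3 (-0.97).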

How the results depend on the processing

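Counts of called members stayed within 1.5 times of those reported under all but a few alternatives. In ACSS2 KO against WT 31 members in place of 19 were called without WT replicate 2 and DKO1 replicate 4 together, and in DKO1 against ACLY KO 10 in place of 20 in a fit of only those groups, which has fewer libraries to estimate the spread. By the stricter rule, requiring at least 10 in every library left 3 of 5 members in ACLY KO against WT, 5 of 8 in DKO1 against ACSS2 KO, 7 of 12 in DKO1 against WT and 1 of 2 in DKO1 against ACLY KO, since 6 members left the test. In the last comparison it was also 1 with equal library totals, transcript length correction, the replicate block, and without WT replicate 2 and DKO1 replicate 4, and 4 in the fit of only those groups. In ACSS2 KO against WT it was 3 in place of 1 with no filter. With each library left out in turn the counts ran from 27 to 33 in ACLY KO against WT, 29 to 36 in DKO1 against ACSS2 KO, 13 to 26 in ACSS2 KO against WT, 15 to 22 in DKO1 against ACLY KO, 29 to 35 in DKO1 against WT and 12 to 20 for the interaction. By the stricter rule they ran from 5 to 6, 7 to 11, 1 to 2 (2 without WT replicate 1, among others), 1 to 3 (1 without DKO1 replicate 4) and 9 to 13. Transcript length correction changed the split of higher against lower calls to 13 and 10 in ACSS2 KO against WT (13 and 6 without it), 16 and 8 in DKO1 against ACLY KO (17 and 3) and 25 and 9 in DKO1 against WT (28 and 5). Equal library totals shifted the median of all genes by 0.10 in ACLY KO against WT and 0.11 in ACSS2 KO against WT. With the replicate block 32 members were called in ACLY KO against WT, 32 in DKO1 against ACSS2 KO, 17 in ACSS2 KO against WT and 18 in DKO1 against ACLY KO, but the numbers do not pair the libraries. Another 5 values, none of them called as reported, turned sign and were then called. Without WT replicate 2 and DKO1 replicate 4 the Txnrd1 interaction was 0.23, the Mgst3 interaction -0.32 and Gstp1 in DKO1 against ACLY KO -0.23. With transcript length correction Gstp1 there was -0.33, and Gsto1 in DKO1 against WT was -0.33. Of 8179 values of single genes under an alternative, 7731 kept their direction and side of the threshold. The causes were not tested. No raw read counts were used here, so depth enters only through the spread, and genes near the minimum of 10 are the least certain.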
